A study of Mus with 17 samples.

Results

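The 6 transcripts of extracellular matrix genes described here were followed across the abdominal aorta samples of the study. They were chosen by Ensembl identifier: ENSMUST00000015138 of Eln, ENSMUST00000055226 of Fn1, ENSMUST00000018737 of Sparc, ENSMUST00000073012 of Postn, ENSMUST00000039559 of Thbs1 and ENSMUST00000031243 of Spp1. All 6 were listed in every file, among 39614 transcripts that all files share, and all 6 were among the 29983 that were tested. The gene symbols came with the chosen identifiers, since the deposited files pair no identifier with a gene. Each gene has other transcripts, so a value below belongs to 1 transcript and not to the whole gene.

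The aortic wall owes its recoil to elastic lamellae, sheets of cross-linked elastin that smooth muscle cells lay down between their layers. Fibronectin forms a fibrillar scaffold that cells grip through integrins and that is remade after injury. Matricellular proteins sit in the matrix without carrying load and regulate how cells attach, how collagen is assembled and how growth factors are released. SPARC, periostin, thrombospondin-1 and osteopontin belong to this class, and their genes are often active in vessels under mechanical or inflammatory stress.

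The study asked how neferine, an alkaloid from lotus seeds, acts in mice infused with angiotensin II, a hormone that narrows arteries and raises blood pressure. All mice were wild type, of the C57BL/6 strain, and were treated for 42 days. Control mice (n = 5) received saline and double distilled water, AngII mice (n = 6) received Angiotensin-II at 500 ng/kg/min and double distilled water, and the third group (n = 6) received the same Angiotensin-II dose and Neferine at 1 mg/kg/d. The labels give no age or sex and do not state whether a sample is 1 animal, so the p-values reflect only how much these samples vary and part of that may be technical. In bulk tissue, fewer cells of a type and less RNA per cell cannot be told apart. The labelled tissue was not checked against smooth muscle or other cell markers, because the identifiers of those genes are not known from the sources used here.

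The values are a deposited abundance signal per transcript whose unit is not named, so levels were compared between samples and not between genes. The summed signal per library was between 392615 and 569873, and the number of reads behind it is unknown. Libraries AngII 2, AngII 6 and neferine 1 stood apart. The 10 highest transcripts took 30.9% of the signal in AngII 2 and 28.9% in neferine 1, against 10.5% to 21.5% in the other libraries. AngII 6 was least like the rest, with a median Spearman rho across transcripts of 0.455, while the remaining libraries had 0.606 to 0.680. The neferine files list another set of transcripts than the Control and AngII files, so that the treatment cannot be told apart from the file set.

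Of the 6 transcripts, Spp1 differed most between the groups. Its mean signal was 22.0 times that of Control and 11.9 times that of AngII when neferine was given with Angiotensin-II. The fitted log2 fold changes were 3.09 and 2.61. Its medians were 18.4 with neferine, 2.02 in AngII and 1.26 in Control, and the ratio to Control rests on low values of 0.453 to 2.23. Neferine replicate 4 was the highest, and without it the ratios of means were 14.1 and 7.62, values added after seeing the data. The Spp1 differences did not pass the adjustment over all transcripts, and neither did any other difference among the 6 transcripts. Thbs1 was higher than every Control library in 4 of 6 AngII and 5 of 6 neferine libraries. Eln and Postn were below every Control library in the same 3 of 6 AngII libraries, Fn1 was above every Control library in 4 of 6, and Sparc split into high and low libraries within each group. Differences are given as log2 fold changes of signal + 1 from limma, which fits a linear model to each transcript, and calls were made where the p adjusted after Benjamini and Hochberg over all 29983 was under 0.05.

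**Figure D1:**
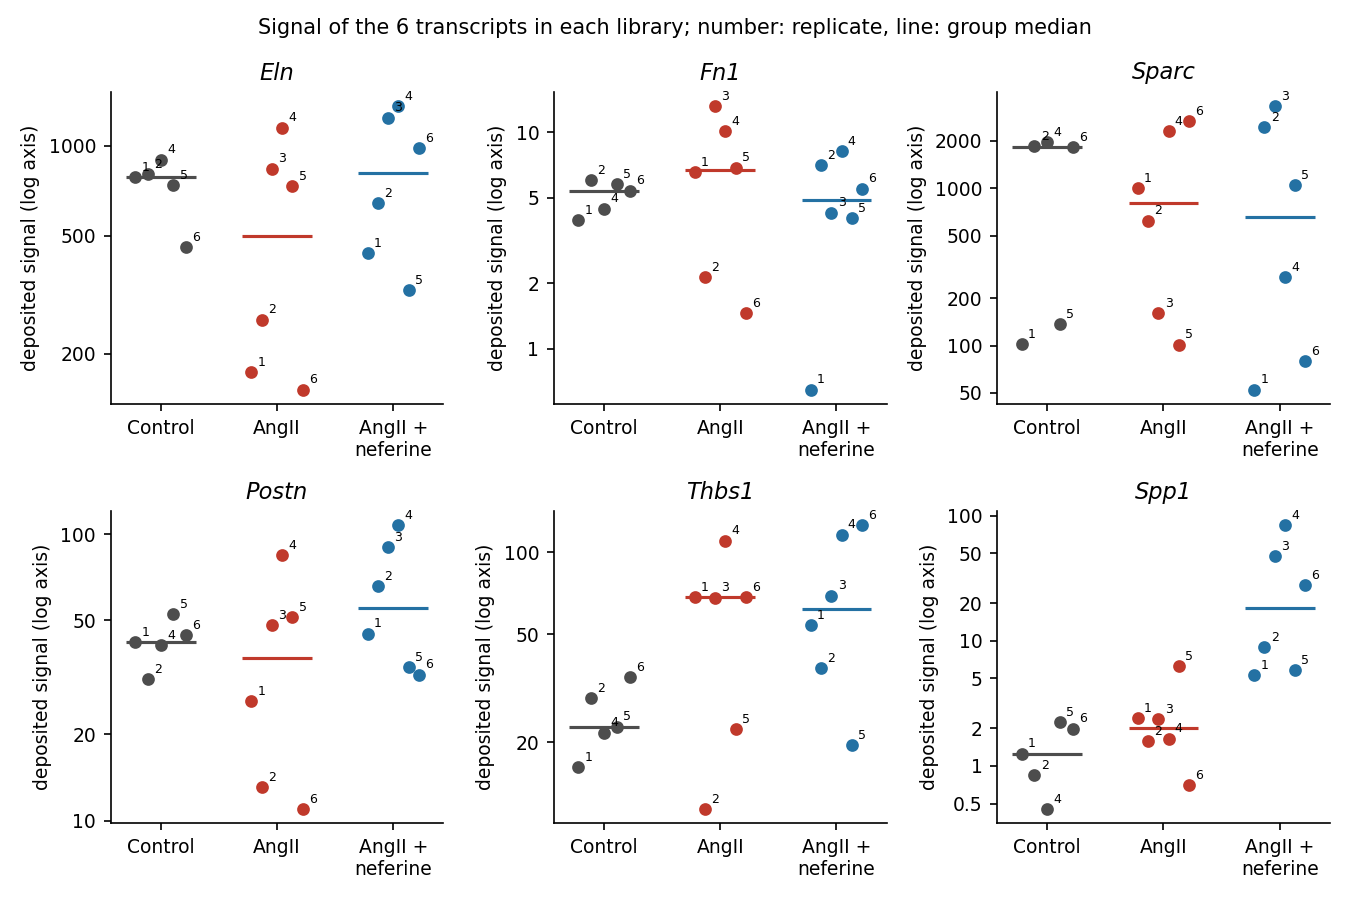
Deposited signal of each of the 6 transcripts (log axis) in every library of Control (n = 5), AngII (n = 6) and AngII with neferine (n = 6); numbers are replicate numbers and lines are group medians. Spp1 lies between 5.29 and 83.6 in all 6 neferine libraries, above every Control library, and Sparc falls into a high and a low set in each group.

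Eln encodes tropoelastin, the soluble building block of elastic fibres. Its signal in Control replicates 1, 2, 4, 5 and 6 was 788, 804, 899.6, 738 and 457. In AngII the lowest, median and highest values were 151, 496 and 1153, and with neferine they were 327, 813 and 1361. AngII replicates 1, 2 and 6 were low, at 174, 261 and 151, and below every Control library, while AngII replicates 3, 4 and 5 lay between 732 and 1153. The Control mean was 737 ± 167 (SD, n = 5), the AngII mean 552 ± 416 (SD, n = 6) and the neferine mean 833 ± 429 (SD, n = 6).

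No difference in Eln passed the adjustment, and each 95% interval included 0. AngII against Control gave a log2 fold change of -0.80 ± 0.52 (SE; limma, adjusted p = 0.762), with a 95% interval from -1.91 to 0.31. Neferine against AngII gave 0.83 ± 0.50 (SE; limma, adjusted p = 0.952), with an interval from -0.23 to 1.88. Neferine against Control gave 0.02, with an interval from -1.08 to 1.13 (limma, adjusted p = 0.994), and the sign of this value turned under 2 of 3 other scalings. Without the 3 libraries that stand apart, AngII against Control was -0.28 and neferine against AngII 0.45, and AngII replicate 1 was then the only AngII library below all Control libraries.

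Fn1 encodes fibronectin, the glycoprotein of the provisional matrix. The transcript was at 3.93, 6.04, 4.44, 5.77 and 5.38 in the Control libraries, in the order given for Eln. In AngII it was 1.45 at the lowest, 6.72 at the median and 13.2 at the highest, and with neferine it was 0.644, 4.87 and 8.17. The 3 lowest Fn1 values of all 17 libraries were those of neferine 1, AngII 6 and AngII 2, at 0.644, 1.45 and 2.13, which are the libraries that stand apart. The other 4 AngII libraries, between 6.56 and 13.2, were all above the highest Control value.

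Fn1 averaged 5.11 ± 0.896 (SD, n = 5) in Control. The AngII mean was 6.73 ± 4.54 (SD, n = 6) and the neferine mean 4.94 ± 2.65 (SD, n = 6). AngII and Control differed by 0.09 ± 0.47 (SE) on the log2 scale (limma, adjusted p = 0.975; interval -0.90 to 1.09). Neferine lay below AngII by a log2 fold change of -0.30 ± 0.45 (SE; limma, adjusted p = 0.973) and below Control by -0.21 ± 0.47 (SE; limma, adjusted p = 0.931). Without the 3 libraries, AngII was above Control by 0.70 (limma, unadjusted p = 0.0117, adjusted p = 0.542) and neferine was below AngII by a value of -0.58 (limma, unadjusted p = 0.032, adjusted p = 0.665). Neferine against Control was then 0.13, of the other sign. No Fn1 difference passed with or without these libraries.

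Sparc encodes a collagen-binding glycoprotein that takes part in the assembly of collagen fibrils. Its transcript was at 102, 1857, 1962, 137 and 1820.3 in the Control libraries. In AngII it ranged from 101 to 2680.5 with a median of 809, and with neferine from 52.3 to 3323 with a median of 657. Each group held both kinds of library: 10 of the 17 lay between 621 and 3323, and the other 7 between 52.3 and 271. The low libraries were Control 1 and 5, AngII 3 and 5, and neferine 1, 4 and 6.

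The libraries with little of the Sparc transcript had much of another one, ENSMUST00000108858, whose gene is not known from the sources used here. It was singled out after its values were seen, as the one with the lowest Pearson r with Sparc (-0.85) among the 29982 other transcripts tested. ENSMUST00000108858 was between 1451 and 3201 in the 7 libraries low in Sparc and between 20.2 and 256 in the 10 others. Sparc made up 89.9% to 99.2% of the sum of the pair in those 10 libraries and 3.39% to 7.80% in the 7. No library lay in between, and the kind of library did not follow the groups: 2 of 5 Control, 2 of 6 AngII and 3 of 6 neferine libraries were of the low kind.

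Summed, the pair varied much less than either transcript. The SD over all libraries on the log2 scale was 0.61 for the sum, 2.10 for Sparc and 2.58 for ENSMUST00000108858. Control libraries were nearly equal in the sum, between 1738 and 2004, with a mean of 1893 ± 131 (SD, n = 5). The sum was 1829 ± 824 (SD, n = 6) in AngII, where replicates 1 and 2 were lowest at 1109.9 and 668, and 2410.5 ± 1004 (SD, n = 6) with neferine. The mean log2 sum differed by -0.21 between AngII and Control, by 0.44 between neferine and AngII and by 0.23 between neferine and Control, given as a description without a test. A search was made for a partner of this kind. It required over 80% or under 20% of the sum in every library, with at least 3 libraries on each side. The SD of the sum also had to be under 50% of both single SDs. The search found 1 for Sparc and 0 for each of the other 5 transcripts. Its rule has the form of the Sparc pair and favours a wide spread, and Sparc had the widest of the 6. The counts are therefore a description and no test.

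**Figure D2:**
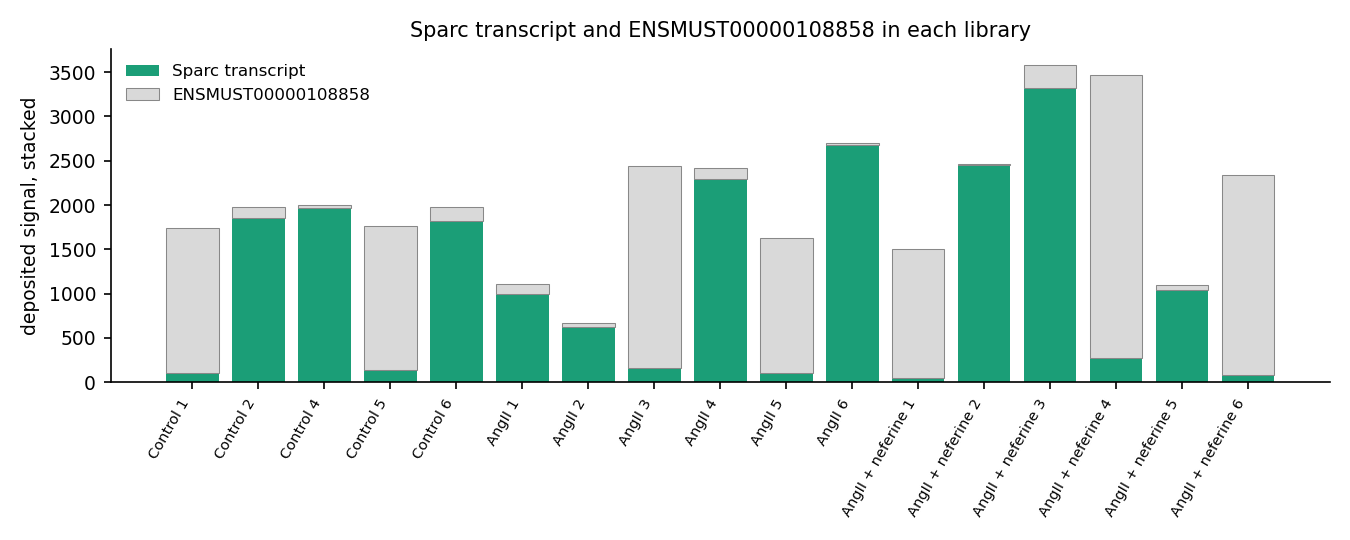
Deposited signal of the Sparc transcript and of ENSMUST00000108858, stacked, in each of the 17 libraries (x axis: group and replicate). Sparc holds 89.9% to 99.2% of the sum in 10 libraries and 3.39% to 7.80% in the other 7, which occur in all 3 groups.

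The Sparc transcript alone had wide intervals in every comparison. AngII against Control gave 0.02 ± 1.25 (SE; limma, adjusted p = 0.999; interval -2.62 to 2.66). Neferine against AngII gave -0.45 ± 1.19 (SE; limma, adjusted p = 0.986), and neferine against Control -0.43 ± 1.25 (SE; limma, adjusted p = 0.951). The sign of the AngII value turned under 2 of 3 other scalings, so no direction is given. The residual SD of Sparc was 2.24 on the log2 scale, above that of 99.3% of the tested transcripts, whose median was 0.60.

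Postn encodes periostin, a matricellular protein that binds collagen and integrins and is made by activated fibroblasts and smooth muscle cells. Its signal was 42.0, 31.1, 41.0, 52.6 and 44.5 in the Control libraries. The lowest, median and highest values were 11.0, 37.1 and 84.5 in AngII and 32.4, 55.3 and 107 with neferine. AngII replicates 1, 2 and 6, the libraries low in Eln, were also the 3 lowest in Postn, at 26.1, 13.1 and 11.0, all below the Control range. Every neferine library was above the lowest Control value.

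Postn averaged 42.3 ± 7.70 (SD, n = 5) in Control. The AngII mean was 39.0 ± 28.0 (SD, n = 6) and the neferine mean 62.5 ± 30.9 (SD, n = 6). Neferine lay above AngII by a log2 fold change of 0.86 ± 0.44 (SE; limma, unadjusted p = 0.0676, adjusted p = 0.952), with an interval from -0.07 to 1.79. AngII against Control gave -0.43 ± 0.46 (SE; limma, adjusted p = 0.841), and neferine against Control 0.43 ± 0.46 (SE; limma, adjusted p = 0.832). Without the 3 libraries that stand apart, neferine was above AngII by 0.28 only, and AngII was above Control by 0.21.

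Thbs1 encodes thrombospondin-1, which activates latent TGF-beta and binds the receptors CD36 and CD47. Its transcript was at 16.2, 29.0, 21.7, 22.8 and 34.7 in the Control libraries. In AngII it was 11.4 at the lowest, 68.2 at the median and 110.4 at the highest, and with neferine it was 19.5, 61.6 and 125.6. The groups overlapped through few libraries: AngII 2 at 11.4, AngII 5 at 22.3 and neferine 5 at 19.5 were at Control level or below it, and all other treated libraries were above the highest Control value.

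Thbs1 averaged 24.9 ± 7.10 (SD, n = 5) in Control. The AngII mean, 58.2 ± 36.1 (SD, n = 6), was 2.34 times and the neferine mean, 70.3 ± 42.6 (SD, n = 6), was 2.82 times as high. Neferine against Control gave a log2 fold change of 1.25 ± 0.54 (SE), with an interval from 0.10 to 2.39, which did not pass (limma, unadjusted p = 0.0344, adjusted p = 0.521; two-sided exact permutation test over samples, p = 0.0346). AngII against Control gave 0.90 ± 0.54 (SE; limma, unadjusted p = 0.115, adjusted p = 0.752). With single libraries left out this value ranged from 0.65 without AngII replicate 4 (limma, unadjusted p = 0.245, adjusted p = 0.813) to 1.29 without AngII replicate 2 (limma, unadjusted p = 0.0158, adjusted p = 0.655). Neferine and AngII differed by 0.35 ± 0.52 (SE; limma, adjusted p = 0.973), with an interval from -0.75 to 1.44. Without the 3 libraries that stand apart, AngII was above Control in Thbs1 by 1.24 (limma, unadjusted p = 0.0386, adjusted p = 0.639). Neferine and AngII then differed by 0.03.

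Spp1 encodes osteopontin, a secreted phosphoprotein that binds integrins and CD44 and is made by macrophages and by smooth muscle cells in injured or calcifying vessels. Its transcript was low in Control, at 1.26, 0.846, 0.453, 2.23 and 1.99. AngII libraries ranged from 0.703 to 6.31 with a median of 2.02, and neferine libraries from 5.29 to 83.6 with a median of 18.4. All 6 neferine libraries were above every Control library. Against AngII the overlap was 1 library: neferine 1 at 5.29 and neferine 5 at 5.85 lay below AngII 5 at 6.31, and the other 4 neferine libraries lay above it.

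Within the neferine group Spp1 spread over a 15.8-fold range, with replicates 1, 2 and 5 between 5.29 and 8.85 and replicates 3, 4 and 6 at 47.5, 83.6 and 27.8. The neferine mean was 29.8 ± 31.0 (SD, n = 6), against an AngII mean of 2.50 ± 1.97 (SD, n = 6) and a Control mean of 1.36 ± 0.751 (SD, n = 5). Replicates 3, 4 and 6 were also the 3 highest neferine libraries in Eln, at 1245, 1361 and 984, and in Thbs1, at 69.3, 116 and 125.6, a coincidence noticed after the values were seen. In Postn, replicates 3 and 4 were the highest of the group and replicate 6 the lowest.

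Spp1 had a log2 fold change of 3.09 ± 0.61 (SE) between neferine and Control, with an interval from 1.81 to 4.37 (limma, unadjusted p = 9.73e-05, adjusted p = 0.101; two-sided exact permutation test over samples, p = 0.00649, where 0.00216 is the smallest possible). It ranked 27 by p among the 29983 transcripts and did not pass. Between neferine and AngII it was 2.61 ± 0.58 (SE), with an interval from 1.39 to 3.83 (limma, unadjusted p = 0.000328, adjusted p = 0.459; exact permutation p = 0.00649), at rank 21. AngII against Control gave 0.48 ± 0.61 (SE; limma, adjusted p = 0.869), with an interval from -0.80 to 1.76. These fits share 1 spread over the groups, though the log2 SD of Spp1 was 0.48 in Control, 0.70 in AngII and 1.58 with neferine. In a fit of only the 2 groups, neferine against AngII was weaker (limma, unadjusted p = 0.00144, adjusted p = 0.774). AngII against Control then had a smaller p (limma, unadjusted p = 0.211, adjusted p = 0.839). Neferine against Control did not pass in its own fit of 2 groups either. The comparisons with Control and with AngII share the neferine libraries, and a scale of signal + 1 understates the fold of a transcript as low as Spp1 in Control.

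Whether Spp1 was called against Control depended on which libraries were kept and how they were weighted. Without neferine replicate 1, the lowest of its group in Spp1 and 1 of the 3 libraries that stand apart, the log2 fold change was 3.41 and passed (limma, adjusted p = 0.0362). Without AngII replicate 2 or AngII replicate 6, which also stand apart, it did not pass (limma, adjusted p = 0.0904 and 0.0691), and neither did it without neferine replicate 5 (limma, adjusted p = 0.0515). It passed without all 3 libraries that stand apart (3.41; limma, adjusted p = 0.0331) and with library weights (3.19; limma, adjusted p = 0.035). More of the whole table was called under the settings where Spp1 passed. The share was 0.354% without the 3 libraries, 0.21% with library weights and 0.0901% without neferine replicate 1, against 0.0367% in the reported fit. Without AngII replicate 6, where Spp1 did not pass, the share was 0.103%. Over all 29 alternatives the adjusted p lay between 0.0331 and 0.285 and the fold change between 2.66 and 3.80. Against AngII the adjusted p lay between 0.22 and 0.908 over the alternatives, so this difference passed in none of them.

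**Figure D3:**
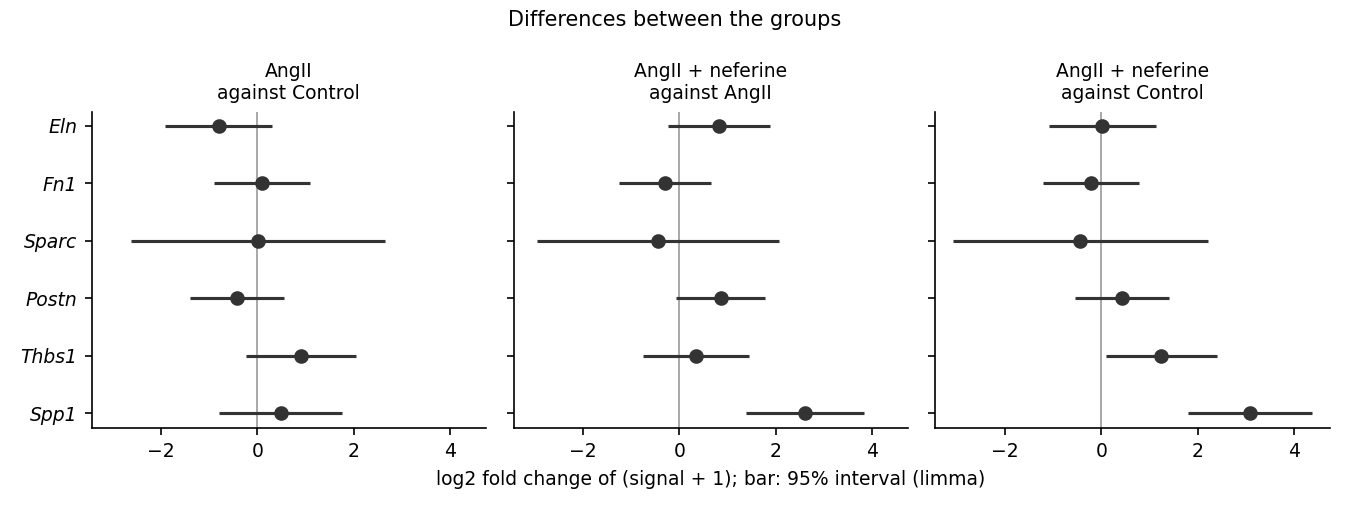
Log2 fold changes of signal + 1 of the 6 transcripts in the 3 comparisons (points) with their 95% intervals from limma (bars). The Spp1 intervals in the comparisons of neferine, 1.39 to 3.83 and 1.81 to 4.37, and that of Thbs1 between neferine and Control, 0.10 to 2.39, lie above 0, and all other intervals include 0.

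Counted together, limma called 0 of the 6 transcripts between AngII and Control, where 0% of all tested transcripts were called. At an unadjusted p under 0.05 there were 0 of the 6, against 7.25% of all. Between neferine and AngII limma called 0 of the 6, against 0% of all, and 1 of the 6, Spp1, had an unadjusted p under 0.05, against 5.22% of all and 2.90% on the higher side. Between neferine and Control limma called 0 of the 6, against 0.0367% of all, and 2 of the 6, Spp1 and Thbs1, had an unadjusted p under 0.05, against 8.74% of all and 4.23% on the higher side. The exact permutation test also called 0 of the 6 in each comparison, with little room to pass the adjustment.

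The groups did not overlap in 1 of the 6 transcripts between neferine and Control, Spp1, against 2.08% of all tested transcripts, and 0.917% with neferine on the higher side. Between AngII and Control the count was 0 of 6, against 0.807%, and between neferine and AngII 0 of 6, against 0.263%. The median log2 fold change of the 6 was 0.05 for AngII against Control, with -0.03 over all transcripts. It was 0.59 for neferine against AngII, with -0.0042 over all, and 0.23 for neferine against Control, with -0.03 over all. In each comparison 4 of the 6 were above 0 and 2 below, against 47.5%, 49.5% and 47.1% of all transcripts above 0. The comparisons share libraries, so these values are not independent.

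Libraries of treated mice varied more than Control libraries in these transcripts. The SD on the log2 scale was larger in AngII than in Control for 5 of the 6, all but Sparc, against 62.9% of all tested transcripts. For Eln it was 1.26 in AngII and 0.38 in Control, for Fn1 1.01 and 0.22, for Postn 1.13 and 0.27, for Thbs1 1.20 and 0.40, and for Spp1 0.70 and 0.48. With neferine the SD was larger than in Control for 6 of 6, against 53.1% of all, and it was 1.58 for Spp1. Without the 3 libraries that stand apart the counts were again 5 and 6 of 6, against 41.8% and 44.2% of all transcripts, and the AngII SD of Eln was 1.21, of Postn 0.68 and of Fn1 0.43. These spreads were described and not tested.

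Eln and Postn varied together over the libraries by Pearson's r, but not by a rank correlation that passed. Their Pearson r over 17 libraries was 0.81 (permutation p = 9e-05, adjusted over the 15 pairs 0.00135), and Spearman's rho was 0.64 (permutation p = 0.00677, adjusted 0.102). The r was 0.73 without AngII replicates 1 and 6, the libraries farthest from the median of Eln, 0.79 with values centred on their group means and 0.67 without the 3 libraries that stand apart. Within AngII it was 0.90 and within neferine 0.67, while in the 5 Control libraries, too few to test a relation, it had the other sign, at -0.30. The log2 ratio of the pair had an SD of 0.57, below the 0.96 of Eln and the 0.84 of Postn alone. Among the 29982 other transcripts Postn ranked 13 in likeness to Eln, and Eln ranked 15 in likeness to Postn.

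The other 14 pairs had adjusted permutation p of r between 0.102 and 0.914. Fn1 was nearest to Postn, with an r of 0.54 and rho of 0.51 (permutation p = 0.0268 and 0.0377, adjusted 0.102 and 0.189), at rank 2953, and an r of 0.57 without the 2 libraries farthest in Fn1 and 0.31 without the 3 that stand apart. Spp1 was nearest to Postn too, with an r of 0.56 and rho of 0.55 (permutation p = 0.0209 and 0.0232, adjusted 0.102 and 0.174), at rank 730, and an r of 0.53 without the 2 libraries farthest in Postn. With group means removed, the r of Spp1 was 0.57 with Eln and 0.52 with Postn, so that Eln was then nearer. Thbs1 was nearest to Spp1, with an r of 0.50 and rho of 0.46 (permutation p = 0.039 and 0.0647, adjusted 0.117 and 0.194), at rank 1082, and an r of 0.40 without the 2 libraries farthest in Thbs1. With group means removed, the r of Thbs1 was 0.35 with Spp1, 0.37 with Fn1 and 0.36 with Eln, and within AngII it was -0.32 with Spp1. Sparc had its highest r, 0.08, with Fn1, but its libraries fall into 2 sets and this pooled value tests no relation.

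Outside the 6, the Ensembl transcript most like Eln was ENSMUST00000202570, with a Pearson r of 0.87 over the 17 libraries, and the one most like Fn1 was ENSMUST00000189017, with 0.92. Their genes are not known from the sources used here. ENSMUST00000202570 had a Control mean of 434 ± 121 (SD, n = 5), an AngII mean of 330.4 ± 201 (SD, n = 6) and a neferine mean of 368 ± 199 (SD, n = 6). ENSMUST00000189017 had means of 42.4 ± 8.90 (SD, n = 5), 39.9 ± 16.8 (SD, n = 6) and 41.0 ± 17.05 (SD, n = 6) in the same order.

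**Figure D4:**
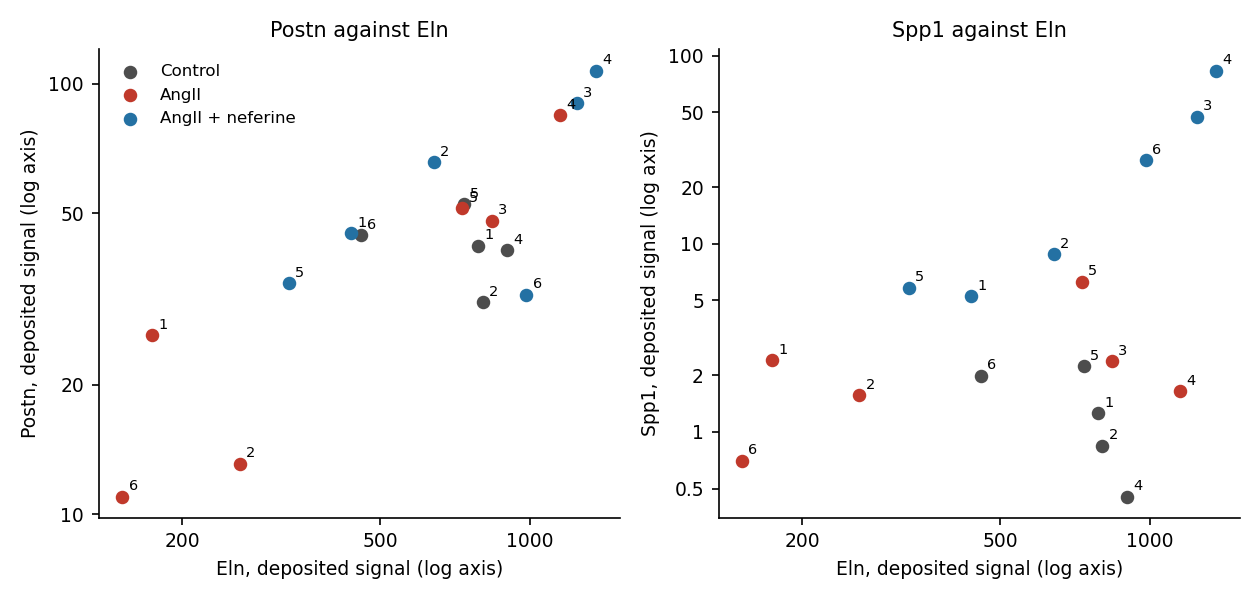
Signal of Postn (left) and Spp1 (right) against Eln in each library (both axes log), coloured by group and numbered by replicate. Postn and Eln had a Pearson r of 0.81 over 17 libraries, while r was -0.30 in the 5 Control libraries and Spearman's rho did not pass over the 15 pairs (adjusted permutation p = 0.102), and neferine replicates 3, 4 and 6 are highest in both Spp1 and Eln within their group.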

How the data were processed

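Abdominal aorta RNA was measured in 17 libraries. Per the labels' protocols, RNA was extracted with Trizol, depleted of ribosomal RNA and made into libraries for Illumina sequencing. The deposited files hold a linear, never negative abundance signal per transcript, and per the file headers its unit is not named. The submitters' processing notes name limma. How reads were aligned and quantified, and on which build, is not given in the sources used here, and the read depth is unknown.

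Groups and replicate numbers came from the titles. The design had planned a count test for counts and limma otherwise, and limma was used. Signals of the 39614 shared transcripts were taken as log2(signal + 1), kept where 5 libraries or more reached 1 (29983), and fitted with limma 3.58.1 in R 4.3.3 (trended, robust moderation), all 17 libraries and a term per group, with Benjamini-Hochberg adjustment over all kept transcripts. The fit was tested on simulated data with 1 spread per transcript in all groups and no library that stands apart. The real data differ from this in both respects. Correlations used 100000 permutations (numpy 2.4.6). At most 0.414% of transcripts had exactly equal deposited values above 0 in any pair of libraries.

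The 6 transcripts and all lists were chosen with earlier results of these data known. All 6 were to be named, with the nearest other transcripts of Eln and Fn1. Planned lists of elastic fibre, matricellular, receptor and cell type marker genes were not analysed here, since the RefSeq table (GRCm38.p6) holds the 6 symbols but no Ensembl identifier. No sequence or coordinate is printed. Alternatives were another pseudocount, filters, scalings, moderation, library weights, fits of 2 groups, an exact permutation test, the replicate block and leaving libraries out.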

Additional observations from a re-analysis of the deposited data

Results flagged for a closer look

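Of 18 groups of 5 or 6 values examined (6 transcripts in 3 groups, log2 scale), 1 had a library far from the others, about what chance gives at 1 in 20. Fn1 in neferine replicate 1 was at 0.644, and its gap to the next neferine library, replicate 5 at 4.001, was 0.647 of the range of the group. Neferine replicate 1 was also the library with 28.9% of its signal in its 10 highest transcripts, whose part in the Fn1 value was not tested. Without it, the log2 fold change of Fn1 was 0.034 between neferine and AngII and 0.13 between neferine and Control.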

How the results depend on the processing

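Of 522 alternative values of the 18 fold changes, 486 kept direction and side of the threshold. Another 33 turned sign and 3 passed where the reported value had not, and the cause was not tested. Many alternatives return the same fold change by construction, such as another filter or leaving out a library of the group not compared. The count of 486 is therefore no measure of how stable the values are. The 3 were Spp1 between neferine and Control, at 3.19 with library weights, 3.41 without the 3 libraries that stand apart and 3.41 without neferine replicate 1 (2.66 to 3.41 over all single libraries left out). Between AngII and Control, Fn1 was -0.13 to 0.37 with single libraries left out. Sparc was -0.10 with equal totals, -0.16 with quantile normalisation, -0.45 with library weights, -0.50 without the 3 libraries and -0.63 to 0.54 with single libraries left out. Postn was 0.044 with library weights and 0.21 without the 3 libraries. Between neferine and AngII, Sparc was 0.44 with library weights, 0.69 without the 3 libraries and -1.02 to 0.18 with single libraries left out, Fn1 -0.58 to 0.034 and Thbs1 -0.039 (without AngII replicate 2) to 0.65. Between neferine and Control, Eln was -0.065 with equal totals, -0.19 with quantile normalisation and -0.15 to 0.26 with single libraries left out. Without the 3 libraries Fn1 was 0.13 and Sparc 0.19, and with single libraries left out they were -0.37 to 0.13 and -1.08 to 0.19.

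The number of transcripts called over the whole table moved more. Between AngII and Control limma called 0, and 2175 had an unadjusted p under 0.05. It called 1 with the stricter filter, 6 with library weights, 7 with only the 2 groups, 6 without the 3 libraries and 0 to 12 with single libraries left out, 12 without AngII 6, 3 without neferine 5, 2 without AngII 1 or neferine 3 and 1 without neferine 2, 4 or 6. Between neferine and AngII limma called 0, and 1564 had an unadjusted p under 0.05. It called 3 with library weights, 2 with only the 2 groups, 15 without the 3 libraries and 0 to 11 with single libraries left out, 11 without AngII 6 and 1 without neferine 2 or 5. Between neferine and Control limma called 11, 10 higher and 1 lower. It called 4 with no filter, 2 with equal totals (1 higher and 1 lower), 63 with library weights, 26 with only the 2 groups, 106 without the 3 libraries, 0 by the exact permutation test and 0 to 31 with single libraries left out. That count was 0 without Control 2, 4 or 5 or neferine 2, 1 without neferine 4 or 6, 3 without AngII 4, 5 without Control 1, AngII 1 or neferine 3, 6 without Control 6 or AngII 3, 27 without neferine 1 and 31 without AngII 6.

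Replicate numbers are shared between the groups, but nothing in the labels pairs the samples, and in 0 of 16 pairs of equal number did the deviations from group means correlate above 0.1 across transcripts (-0.15 to 0.06). With the replicate block limma called 0 transcripts in each comparison, Fn1 and Sparc between AngII and Control were -0.021 and -0.071, and Eln between neferine and Control was -0.15. The read depth is unknown, so no counting error can be given for the low values of Spp1 in Control and of Fn1.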
